A study of Mus musculus with 189 samples.

Results

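The JmjC-only proteins carry a Jumonji C domain, the fold of a family of iron- and oxoglutarate-dependent oxygenases, without the PHD, Tudor, CXXC or other chromatin-reading domains that accompany it in most histone demethylases. The family is best known for taking methyl groups off histone lysines, but many JmjC-only members hydroxylate amino acid side chains of proteins in translation and splicing instead. In the oocyte and the early embryo their transcripts can be maternal, that is stored in the oocyte and cleared after fertilization, or zygotic, that is made when the embryonic genome is switched on, which in the mouse takes place mainly at the 2-cell stage.

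The members were chosen by name, as 5 of 192 qPCR assays, of which 36 failed quality control: Jmjd4, Jmjd5, Jmjd6, Jmjd8 and 2410016O06Rik. The assay of Jmjd7, another gene of this kind, was marked as failed and was not used here. Jmjd4 hydroxylates a translation termination factor. Jmjd5, also called Kdm8, is an arginine hydroxylase of the nucleus that is required for mouse development. Jmjd6 hydroxylates lysines of splicing factors. Jmjd8 lies in the endoplasmic reticulum. 2410016O06Rik, the gene of NO66 and now named Riox1, encodes a nucleolar hydroxylase of a ribosomal protein.

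The data were single-cell qPCR measurements of oocytes and early embryos: 11 MII oocytes (mature unfertilized eggs), 14 zygotes, 21 samples of the 2-cell stage, 7 of the 3-cell, 12 of the 4-cell, 27 of the 8-cell, 26 of the 16-cell and 50 of the 32-cell stage. Oocytes came from superovulated F1 females of C57BL/6 and DBA/2 mice, embryos from such females mated to C57BL6 males, and embryos were grown in KSOMaa medium at low oxygen. No sample carried a mutation or treatment, and the stages were the only groups. Blastomeres of an embryo are not independent, so values were averaged to 58 oocytes or embryos (11, 14, 8, 3, 6, 7, 2 and 7 in the order of the stages). The 11 blastomeres of the 2-cell stage with no named embryo entered as 1 unit.

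Every level below is an inverted Ct (30 minus the threshold cycle) minus the mean inverted Ct of the control genes Hnrnpr, Ssu72 and Ube2e1, so it is on a log2 scale. A Ct of 30 marks a transcript that was not detected. Samples said below to hold a transcript, or to be without it, are those in which it was or was not detected. Such a sample takes a level set by its control genes alone, on average −17.08 in MII oocytes and −12.46 at the 32-cell stage. These levels therefore have no order among stages. For the members, called differences between consecutive stages or to MII oocytes that rest on them are given again without the undetected values. For 2410016O06Rik against MII oocytes, medians of the detected samples are given instead. Differences of other genes are given only with undetected values included. The mean control Ct was 12.9 in MII oocytes and 17.5 at the 32-cell stage, so sensitivity was lower in the late samples. The control genes also moved against each other. Relative to their mean, Ssu72 averaged −0.66 in MII oocytes and 1.26 in 3 whole 32-cell embryos, and Hnrnpr −0.86 and −2.39. As a check of the labels, Dazl, an oocyte transcript, was detected in 11 of 11 MII oocytes, 12 of 27 samples of the 8-cell, 1 of 26 of the 16-cell and 8 of 50 of the 32-cell stage. Nanog, a pluripotency factor, was detected in 0 of 11 MII oocytes, 26 of 26 samples of the 16-cell and 50 of 50 of the 32-cell stage. Dazl and Nanog separate oocytes from late embryos but not the 16-cell from the 32-cell stage. Other markers differed. ZP3, also an oocyte transcript, was detected in 24 of 26 samples of the 16-cell and 20 of 50 of the 32-cell stage. It was detected in 11 of 11 MII oocytes, so by detection it did not set them apart from 16-cell samples. Cdx2, a trophectoderm marker, was detected in 26 of 26 and 34 of 50 of these late samples, and Pou5f1 and Krt8 in all. The part of the lower sensitivity in these shares was not tested. The labels of the 16-cell samples name both a morula and a blastocyst, with some blastomeres numbered above 16. They were taken as 16-cell from the developmental stage that the labels give.

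The genes of the members lie in GRCm38.p6 at chr11:59450032-59462971 (Jmjd4, plus strand), chr7:125444620-125463651 (Jmjd5, plus), chr11:116837432-116843767 (Jmjd6, minus), chr17:25829043-25831843 (Jmjd8, plus) and chr12:83950608-83952953 (2410016O06Rik, plus). Below are the 250 bases before the RefSeq start of the 3 members that changed from the zygote to the 2-cell stage, because 2 of them rose and 1 fell at the same step. They run 5′ to 3′ on the strand of the gene, and capitals mark matches to the motifs named after them. The Jmjd4 window lies before the start of a transcript that begins a few bases inside the gene.
2410016O06Rik, chr12:83950358-83950607: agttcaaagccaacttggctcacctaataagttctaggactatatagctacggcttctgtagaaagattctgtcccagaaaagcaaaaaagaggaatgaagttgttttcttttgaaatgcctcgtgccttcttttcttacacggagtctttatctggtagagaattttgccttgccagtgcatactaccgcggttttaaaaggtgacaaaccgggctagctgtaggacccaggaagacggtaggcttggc
Jmjd4, chr11:59449795-59450044: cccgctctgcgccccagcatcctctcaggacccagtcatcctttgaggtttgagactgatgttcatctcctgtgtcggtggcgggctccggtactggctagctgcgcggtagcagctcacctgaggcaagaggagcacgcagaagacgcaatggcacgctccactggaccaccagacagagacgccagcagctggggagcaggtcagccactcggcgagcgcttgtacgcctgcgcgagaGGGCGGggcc
Jmjd8, chr17:25828793-25829042: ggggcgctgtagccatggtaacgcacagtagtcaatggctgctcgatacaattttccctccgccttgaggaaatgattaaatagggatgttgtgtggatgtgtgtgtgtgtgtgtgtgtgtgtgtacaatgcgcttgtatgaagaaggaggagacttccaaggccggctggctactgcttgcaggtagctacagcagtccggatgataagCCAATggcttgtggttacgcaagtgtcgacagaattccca
The motifs searched on both strands were the GC box (GGGCGG), the CCAAT box (CCAAT), the TATA box (TATAAA), the E box (CACGTG), the ETS core (CCGGAAG) and the YY1 core (ATGGCG). Jmjd4 held 1 GC box, as did 32.7% of 32851 mouse promoter windows of this length, and Jmjd8 held 1 CCAAT box, found in 33.8% of them. The window of 2410016O06Rik matched none of these letters. CpG pairs numbered 18 in the window of Jmjd4, 9 in that of Jmjd8 and 7 in that of 2410016O06Rik, against a median of 6 over all windows. These are descriptions of the sequence and say nothing of which factor binds there.

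**Figure D1:**
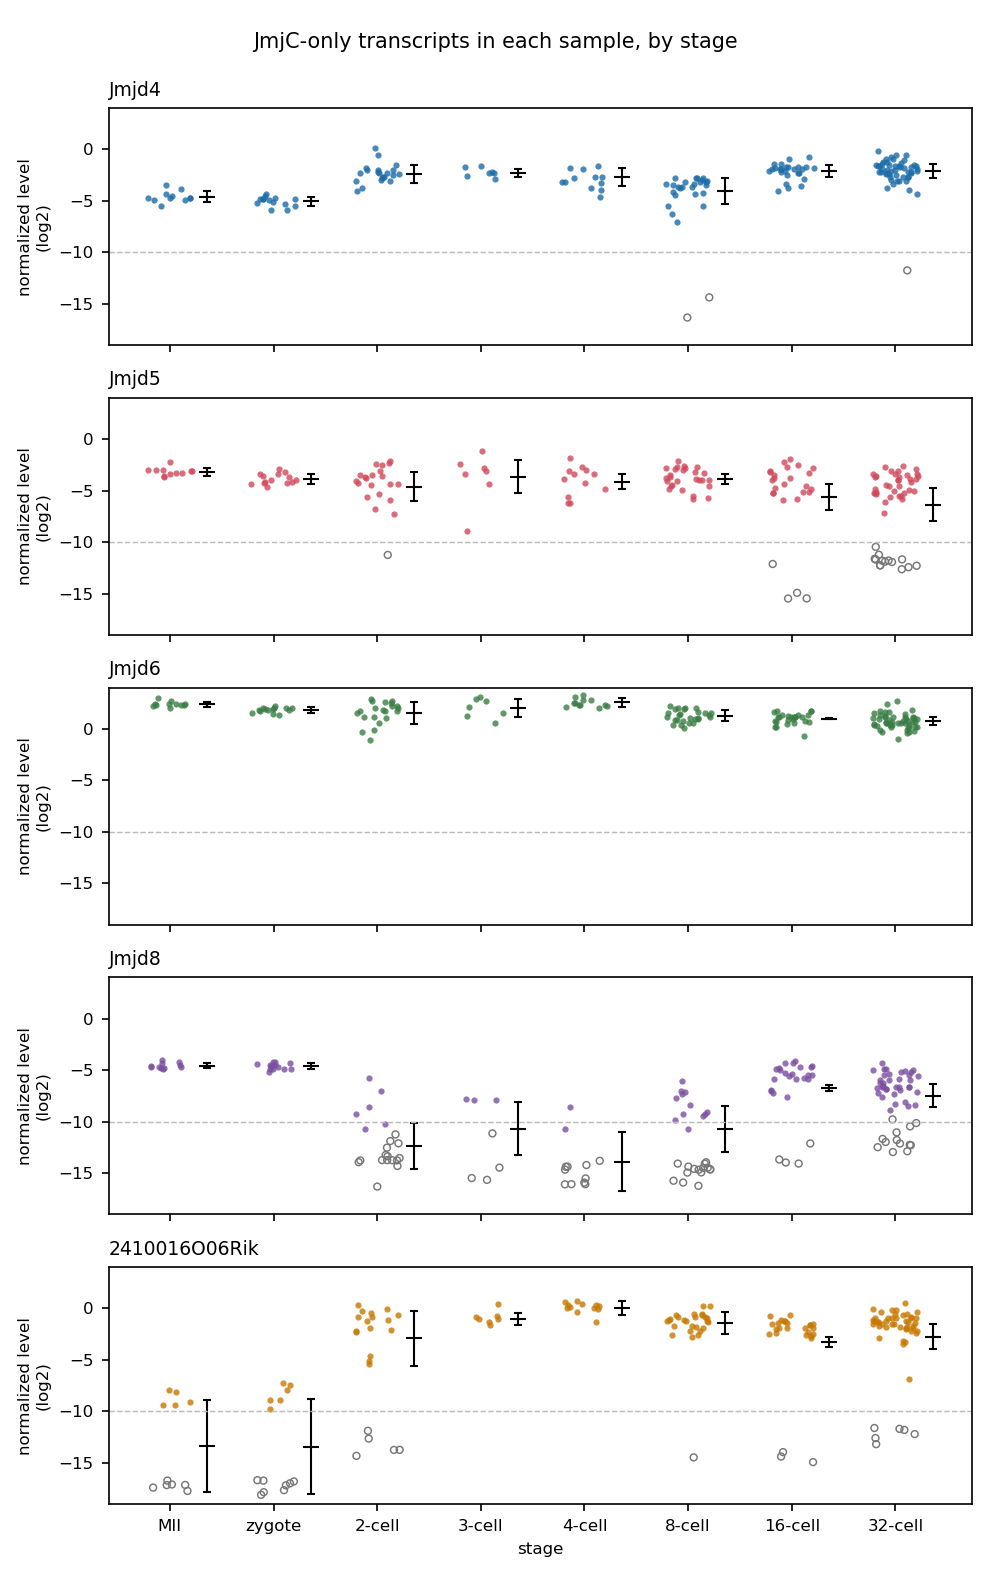
Level of each member in each sample (y axis, log2 relative to the 3 control genes) by stage (x axis). Filled points are detected samples, open points samples at a Ct of 30 or above, whose height is set by their control genes, black bars the mean and SD over oocytes or embryos, and the dashed line the level of −10 that the study used as its threshold of expression. Jmjd8 and 2410016O06Rik change places between zygote and 2-cell stage, while Jmjd6 is detected in every sample.

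2410016O06Rik was the member with the lowest maternal signal and rose at the 2-cell stage. It was detected in 5 of 11 MII oocytes and 6 of 14 zygotes, and its level in the detected ones lay between −9.76 and −7.21. From the 2-cell stage on it was detected in 128 of 143 samples, between −6.86 and 0.76. The detected samples before and after the step therefore did not overlap. By unit, the level in zygotes had a lowest value of −18.10, a median of −16.70 and a highest of −7.21. In 2-cell embryos the lowest was −6.18, the median −2.56 and the highest 0.32, above every zygote. The difference between the stage means was 10.53 on the log2 scale (SE 1.44, limma adjusted p = 6.49e-09), and 6.72 (SE 0.57) with undetected values left out. Its highest stage mean was 0.02 ± 0.68 (SD, n = 6) at the 4-cell stage, where the 6 embryos read −1.32, 0.11, 0.18, 0.21, 0.30 and 0.62. The rise of 2.93 from 2-cell to 4-cell did not pass the test (SE 1.75, limma adjusted p = 0.188), but did with undetected values left out (1.65, SE 0.57, limma adjusted p = 0.0233). The first SE comes from the spread over all 8 stages, with an SD between units of 4.43 in MII oocytes and 4.62 in zygotes. At the 2-cell and 4-cell stages the SD was 2.69 and 0.68, so the test did not measure the scatter of these embryos alone. All 4-cell samples (12 of 12) held the transcript, against 16 of 21 at the 2-cell stage. 16-/32-cell embryos stood 10.52 above MII oocytes (SE 1.46, limma adjusted p = 5.50e-09). The size of this difference rests in part on oocytes without a signal. Among detected samples alone the median was −9.07 in MII oocytes and −1.54 at the 16- and 32-cell stages.

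The 5 samples of the 2-cell stage without 2410016O06Rik were all single blastomeres, 4 of those with no named embryo and 1 of a pair of sisters whose other cell read −0.46. Their median control Ct was 16.3, against 16.4 in the 16 samples with the transcript. All 3 samples labelled as 2-cell embryos had it, at −0.87, −0.27 and 0.32. Another 3 samples are labelled as blastomeres but titled like whole embryos, so whether they were whole is uncertain, and they were taken as labelled. They held it too, at −5.38, −4.61 and −1.17.

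Jmjd8 showed the opposite order. All 25 oocytes and zygotes held the transcript within a narrow band, from −5.16 to −4.03 with a median of −4.62. Of the 2-cell samples 6 of 21 held it, of the 3-cell samples 3 of 7 and of the 4-cell samples 2 of 12. By unit, 2-cell embryos ran from −16.31 to −9.45 with a median of −12.23, all below the lowest zygote. The stage mean fell by 7.74 (SE 0.70, limma adjusted p = 3.65e-14), and by 4.34 (SE 0.43) with undetected values left out. Of the whole embryos, whose RNA was not divided among cells, 1 of 3 labelled as 2-cell and 1 of 3 labelled as 4-cell embryos had detectable Jmjd8. In whole embryos and groups of cells, fewer cells with a transcript and less of it in each cell cannot be told apart.

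Jmjd8 came back later. It was detected in 12 of 27 samples at the 8-cell, 22 of 26 at the 16-cell and 37 of 50 at the 32-cell stage, and in 3 of 3 whole embryos at each of these stages. The mean level rose by 3.13 from 4-cell to 8-cell embryos (SE 0.88, limma adjusted p = 0.00264), but by 0.95 with undetected values left out, which did not pass the test (limma adjusted p = 0.188). From 8-cell to 16-cell embryos it rose by 4.03 (SE 1.27, limma adjusted p = 0.0150), and by 3.24 (SE 0.61) with undetected values left out. The 7 embryos of the 8-cell stage read between −13.85 and −7.08, below both 16-cell embryos at −6.90 and −6.52. This call was lost when either 16-cell embryo was left out (limma adjusted p = 0.101 without the first and 0.148 without the second), although the rise stayed at 4.22 and 3.84, and also with no normalization (2.67, limma adjusted p = 0.263). The stage mean of the 32-cell stage was −7.47 and that of MII oocytes −4.57, and the difference of 16-/32-cell embryos to MII oocytes was −2.74 (SE 0.71, limma adjusted p = 0.000490). Of the 76 late samples 17 had no signal, and without them the difference was −1.54 (SE 0.34, limma adjusted p = 7.08e-05). With undetected values included in the embryo means, the lowest MII oocyte, at −4.92, was above the highest late embryo, at −5.94. The detected late samples had a median of −5.87 but reached −4.13, so single samples overlapped the oocytes.

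**Figure D2:**
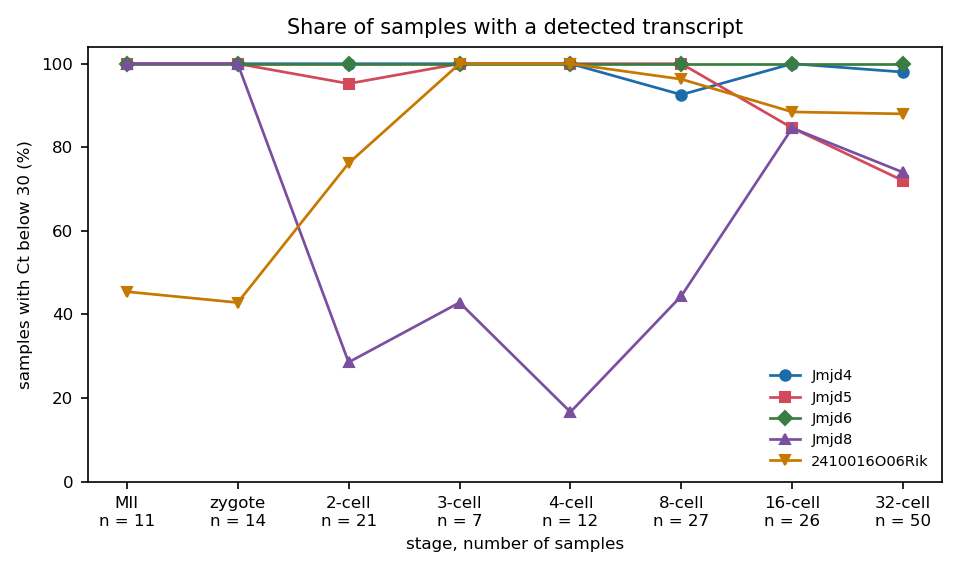
Share of samples in which each member was detected (y axis, percent of samples with a Ct below 30) by stage (x axis, with the number of samples). Jmjd8 drops from 100% in zygotes to 28.6% of 2-cell and 16.7% of 4-cell samples, while 2410016O06Rik goes from 42.9% to 76.2% and 100%.

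In 8-cell embryos Jmjd8 was detected in some sister cells and not in others. In the single blastomeres of the embryo with 8 sampled cells numbered 4, 3 held the transcript, at −9.26, −7.68 and −7.30, and 5 did not. The other embryo with 8 sampled cells, number 5, again had 3 with the transcript, between −9.06 and −6.04. Embryos 6 and 7 had it in 1 of 5 and 2 of 3 blastomeres. The control Ct had a median of 15.4 both in the 12 samples of the 8-cell stage with Jmjd8 and in the 15 without. At the 16-cell stage 8 of 10 single cells in each embryo held it. At the 32-cell stage the share of single cells ran from 3 of 10 to 2 of 2, and here the samples without it had less control transcript (median control Ct 18.02, against 17.47 with it). The part of this in the detection was not tested.

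**Figure D3:**
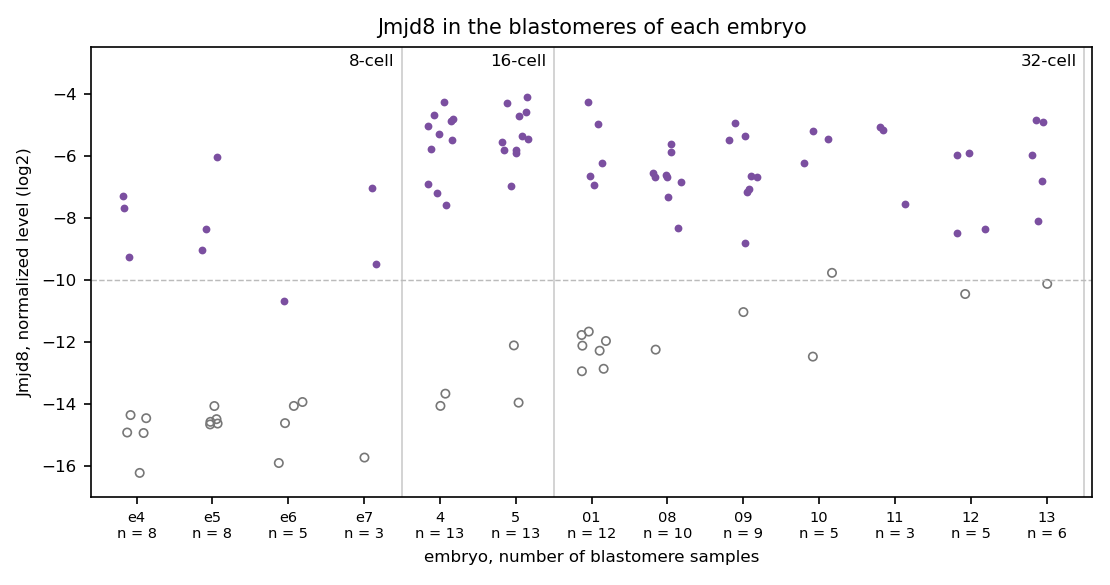
Level of Jmjd8 (y axis, log2 relative to the 3 control genes) in each blastomere sample of the embryos of the 8-, 16- and 32-cell stages (x axis, the embryo's number in the labels). Filled points are detected samples and open points undetected ones. Every 8-cell embryo shown has blastomeres in which the transcript was detected and blastomeres in which it was not.

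The pooled SD between single cells of an embryo was 3.45 for Jmjd8 at the 8-cell stage, 3.395 for Jmjd4, 2.68 for 2410016O06Rik, 0.98 for Jmjd5 and 0.44 for Jmjd6, where the median over all genes that passed quality control was 0.64. The first 3 of these values rest on undetected cells. For Jmjd4 these were 2 of 24 cells and for 2410016O06Rik 1 of 24. Jmjd6 varied less than the median gene between sister cells, at rank 135 of all genes from the most to the least variable in 4-cell embryos, 125 in 8-cell, 117 in 16-cell and 114 in 32-cell embryos.

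Jmjd4 also rose at the 2-cell stage, from a clear maternal level. It was not detected in 2 samples of the 8-cell and 1 of the 32-cell stage, and was detected in every other sample. Zygotes read between −5.91 and −4.35 with a median of −4.87, and 2-cell embryos between −4.07 and −1.16 with a median of −2.49, so no 2-cell embryo was as low as a zygote. The difference was 2.66 (SE 0.33, limma adjusted p = 4.21e-10), or 6.30-fold relative to the control genes. At the 8-cell stage Jmjd4 was lower than at the 4-cell stage by 1.31 (SE 0.41, limma adjusted p = 0.00703), with embryos between −6.65 and −2.81 against −3.62 to −1.62. The size rested in part on embryo 4, the lowest, in which 2 of 8 cells had no signal. The difference was −0.87 without that embryo (SE 0.36, limma adjusted p = 0.0475) and −0.89 with undetected values left out (SE 0.33, limma adjusted p = 0.0213). It was higher again by 1.88 in 16-cell embryos (SE 0.59, limma adjusted p = 0.0150), which read −2.54 and −1.73, and by 1.47 with undetected values left out (SE 0.48, limma adjusted p = 0.0169). Both of these calls were lost with normalization to the sample median, at −0.83 (limma adjusted p = 0.0819) and 1.48 (limma adjusted p = 0.0506), and the second was lost without the first 16-cell embryo (1.47, limma adjusted p = 0.250) and with the deposited normalized table (0.0030, limma adjusted p = 0.997). 16-/32-cell embryos stood 2.46 above MII oocytes (SE 0.33, limma adjusted p = 2.70e-09).

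The direction for Jmjd4 held relative to the 3 named control genes, but not in the signal per sample. Samples from the 2-cell stage on were mostly blastomeres, which hold part of an embryo, whereas oocytes and zygotes were whole. In 30 minus Ct with no normalization, Jmjd4 changed by −0.35 from zygotes to 2-cell samples (SE 0.54, limma adjusted p = 0.541) and by −1.84 from MII oocytes to 16-/32-cell samples (SE 0.55, limma adjusted p = 0.00193). Relative to Gapdh, Hspa8 and Lmnb1, the genes that the deposited normalized table turned out to use, it was 2.21 higher in 2-cell embryos than in zygotes, and 1.10 lower in the latest stages than in MII (limma adjusted p = 0.00248). The assays of Gapdh, Hspa8 and Lmnb1 were themselves marked as failed in quality control, which limits every result with that table. In whole embryos, which hold the transcripts of all their cells, inverted Ct of Jmjd4 averaged 12.0 ± 0.775 (SD, n = 14) in zygotes, 13.4 ± 1.32 (SD, n = 3) at the 2-cell, 13.6 ± 0.994 (SD, n = 3) at the 8-cell and 14.8 ± 0.829 (SD, n = 3) at the 32-cell stage. The whole 16-cell embryos stood apart from their neighbours, at 17.3 ± 1.12 (SD, n = 3), as did their control genes.

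**Figure D4:**
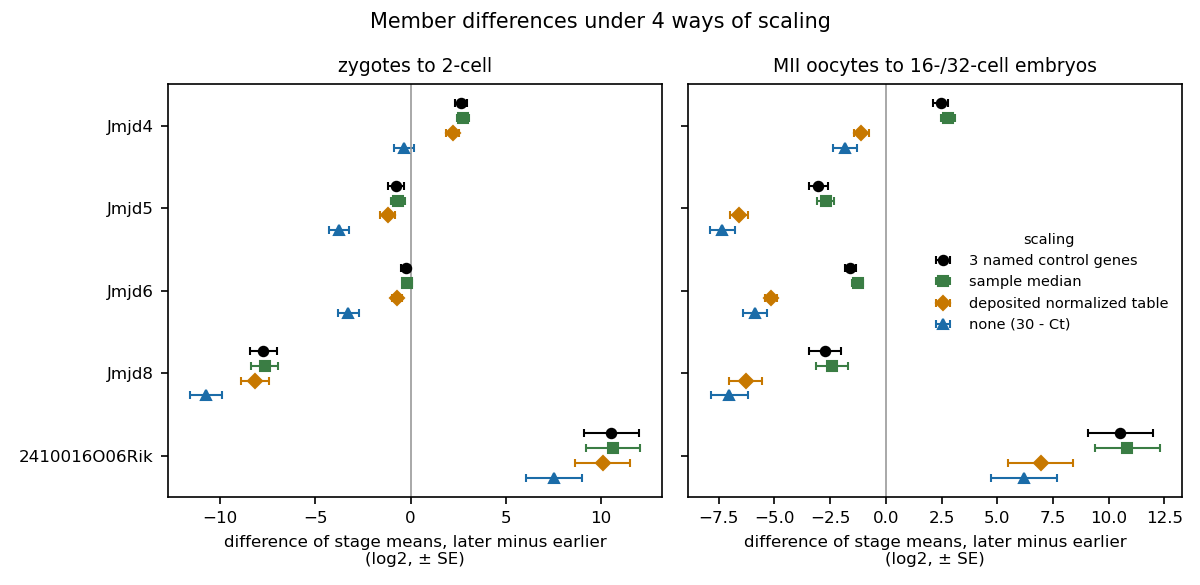
Difference of stage means (x axis, log2, later minus earlier, bars ± SE) of each member for zygotes to 2-cell embryos and MII oocytes to 16-/32-cell embryos, under 4 ways of scaling. Jmjd8 lies below 0 and 2410016O06Rik above 0 in all of them, while Jmjd4 lies at 2.46, 2.79, −1.10 and −1.84 for the second comparison.

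Jmjd6 was the only member detected in every sample of every stage. MII oocytes read between 2.00 and 2.96 with a median of 2.37. Its highest stage mean was 2.57 in 4-cell embryos, which ran from 2.08 to 3.28. That was 0.99 above 2-cell embryos (SE 0.29, limma adjusted p = 0.00873), whose units ran from −0.11 to 2.93 and overlapped. The call was lost with the deposited normalized table (0.69, SE 0.32, limma adjusted p = 0.0781). At the 8-cell stage the 7 embryos lay between 0.73 and 1.99, all below the lowest 4-cell embryo, a fall of 1.27 (SE 0.30, limma adjusted p = 0.000331). No later step changed the level beyond the test. 16-/32-cell embryos stood 1.59 below MII oocytes (SE 0.24, limma adjusted p = 5.43e-08), or 3.00-fold lower relative to the control genes, without overlap.

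No step between neighbouring stages passed the test for Jmjd5. The largest was that from 8-cell to 16-cell, of −1.73 (limma adjusted p = 0.0903), and the step from zygote to 2-cell was called under 4 other settings, such as −1.21 with the deposited normalized table (limma adjusted p = 0.00640), and without the eighth 2-cell unit. The stage means of the 2-cell to 8-cell stages lay within −4.61 and −3.65. The 9 embryos of the 16- and 32-cell stages read between −8.41 and −3.85, all below the lowest MII oocyte at −3.64, and the difference was −3.03 (SE 0.43, limma adjusted p = 7.68e-09). Most of this lay in cells without a signal. Jmjd5 was detected in 27 of 27 samples at the 8-cell, 22 of 26 at the 16-cell and 36 of 50 at the 32-cell stage, and with undetected values left out the difference was −1.10 (SE 0.31, limma adjusted p = 0.000936). At the 32-cell stage the 14 samples without it had a median control Ct of 18.2, against 17.4 in the 36 with it. Of the single cells there, 19 of 32 held it, and of the groups of cells 17 of 18. With the 25 samples of a control Ct above 18 left out, the difference to MII oocytes was −2.54 (SE 0.38). It was also the least repeatable assay of the 5: in 3 repeats of 200 pg of embryonic stem cell RNA its Ct had an SD of 1.46, against 0.172 for Jmjd4, 0.157 for Jmjd6, 0.0545 for Jmjd8 and 0.638 for 2410016O06Rik.

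Counted over the members, none of the 5 changed from MII oocyte to zygote, where 1.92% of all tested genes were called (0.641% higher and 1.28% lower). From zygote to 2-cell 2 rose (29.5% of all genes) and 1 fell (39.1%), with 68.6% of all genes called either way. From 2-cell to 4-cell 1 rose (7.05% of all genes) and none fell (25.6%), with 32.7% called. From 4-cell to 8-cell 1 rose (13.5%) and 2 fell (35.9%), with 49.4% called. From 8-cell to 16-cell 2 rose (19.9%) and none fell (8.33%), with 28.2% called, and from 16-cell to 32-cell no member was called, against 10.9% of all genes (8.97% higher and 1.92% lower). Between MII oocytes and 16-/32-cell embryos all 5 were called, 2 higher (37.8% of all genes) and 3 lower (46.8%), where 84.6% of all genes were called. With 5 genes, no result about the family is read from these shares. The comparisons share stages, so their counts are not independent. Over all genes 59 were higher and 73 lower in late embryos by the 3 control genes. This split was 20 and 115 with the deposited normalized table and 19 and 117 with no normalization, and that of the members was then 1 and 4. With no normalization, whole oocytes are set against late samples that hold only part of an embryo, so that split also counts the smaller sample. The median of all genes lay at −0.35 by the 3 control genes, −3.91 with the deposited table and −4.65 with no normalization, so that Jmjd4 and 2410016O06Rik were above the median gene and Jmjd8 below it in each case.

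The order of the stage means differed between members. For Jmjd4 the 4-cell and the 8-cell stage were the only neighbours in the order that differed by the test (32-, 16-, 3-, 2- and 4-cell above, 8-cell, MII and zygote below). That gap was lost with normalization to the sample median, and stages further apart in the order also differed, as zygotes and 8-cell embryos did (1.03, limma adjusted p = 0.00527). For 2410016O06Rik the only such gap lay between the 16-cell stage at −3.27 and MII oocytes at −13.37 (limma adjusted p = 0.000357). The wide spread of this gene in oocytes and zygotes entered the test of every pair of stages. The size of the gap rests in part on the 6 of 11 oocytes without a signal, and the medians of the detected samples were −1.87 and −9.07. For Jmjd8 it lay between the 32-cell and the 3-cell stage (3.23, limma adjusted p = 0.00990). This gap rests on samples without a signal, 4 of 7 at the 3-cell stage, and the medians of the detected samples were −6.58 and −7.89. The 8-, 2- and 4-cell stages, where most samples had no signal, have no order for Jmjd8. No neighbours in the order differed for Jmjd5, which ran from MII down to the 32-cell stage, or for Jmjd6, which ran from the 4-cell down to the 32-cell stage.

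Over the 58 oocytes and embryos the levels of Jmjd8 and 2410016O06Rik ran against each other (Spearman rho −0.85), as did those of Jmjd8 and Jmjd4 (−0.60), while Jmjd4 and 2410016O06Rik ran together (0.66). These describe the stages, which the units of a stage share. They rank also units without a signal, whose level is set by their control genes, such as 8 of 14 zygotes for 2410016O06Rik and most 2-cell to 8-cell samples for Jmjd8, so the order within those stages carries no information on the gene, here and in the lists of like genes that follow. The genes most like 2410016O06Rik were Cbx3 (rho 0.88), a reader of methylated H3, Kdm5a (0.87), a demethylase of active promoters, and Fgf4 (0.85), a growth factor of the inner cell mass. Those most like Jmjd4 were Carm1 (0.79), an arginine methyltransferase, Smyd5 (0.75) and Mtf2 (0.75), a Polycomb cofactor. Jmjd8 was most like Cbx1 (0.84), the histone chaperone gene ASF1A (0.83) and Kdm6b (0.81), an H3K27 demethylase. Jmjd5 came closest to Bmi1 (0.68), a Polycomb subunit, Jhdm1d (0.66), a demethylase gene, and the zona pellucida gene ZP3 (0.64). Jmjd6 came closest to the chromatin protein gene DEK (0.74), Dicer1 (0.67), the small RNA processing enzyme, and the histone gene H3f3a (0.67).

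Of the 17 JmjC genes whose products carry further domains, 7 were higher (29.5% over all genes) and 7 lower (39.1%) in 2-cell embryos than in zygotes, and 7 were higher (37.8%) and 8 lower (46.8%) in the late embryos compared with MII. Their median difference in the latter comparison was 0.31, against −0.35 over all genes and −1.59 over the 5 members. The largest rises among them were those of Kdm5d (6.41, SE 1.86), Kdm5a (4.77, SE 0.72) and Kdm4c (4.41, SE 0.70), which remove methyl groups from H3K4 in the first 2 cases and from H3K9 in the last. The largest falls were those of Jhdm1d (−5.11, SE 0.19), Phf8 (−4.12, SE 0.27) and Kdm6a (−3.09, SE 0.24), which act on repressive marks. These rises and falls include undetected values at the level set by the control genes. The part of such values in their sizes and order was not tested, and the SE was widest for Kdm5d. From 4-cell to 8-cell 8 of the 17 fell (35.9% over all genes) and none rose (13.5%), and from 8-cell to 16-cell 1 rose (19.9%) and 1 fell (8.33%).

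The second question was whether a member follows the first split of lineages, in which inner cells form the inner cell mass (ICM) and outer cells the trophectoderm (TE). Each late sample was given a lineage score, the mean level of 12 ICM genes minus that of 8 TE genes named as core markers by the study. The slope of each member on the score was taken within each of the 8 embryos with at least 4 samples, 2 of the 16-cell and 6 of the 32-cell stage, and the slopes were tested against 0 over embryos. No member passed (limma adjusted p from 0.639 to 0.866), where 2.56% of all genes were called (1.28% towards the ICM and 1.28% towards the TE). The mean slope of Jmjd4 was 0.028 (SE 0.049), of Jmjd5 0.45 (SE 0.36), of Jmjd6 −0.030 (SE 0.047), of Jmjd8 0.058 (SE 0.18) and of 2410016O06Rik −0.27 (SE 0.20), in log2 per unit of score.

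The test had little power. Only 4 of the 20 core genes themselves were called, though their slopes pointed the way of their names in 12 of 12 ICM and 8 of 8 TE genes, which is no independent evidence because they make up the score. With embryos weighted by the spread of their scores, 48 genes were called, among them all 20 core genes, and no member. The study had picked the core genes from their correlations in these same 16- and 32-cell samples. Their calls therefore do not show what the test could find for a member. Single embryos set some of the means. In 32-cell embryos 10 and 12 every sample had a positive score, from 2.59 to 7.82 and from 6.18 to 8.64. Their slopes therefore do not compare ICM-leaning with TE-leaning cells, while each other embryo held positive and negative scores. Jmjd5 had a slope of 3.18 in 32-cell embryo 12, which had 5 samples, and between −0.18 and 0.29 in the other 7. Without that embryo its mean slope was 0.062 (SE 0.065). Jmjd8 had slopes of −1.10 and 0.86 in embryos 10 and 12 and between −0.05 and 0.32 in the others. 2410016O06Rik had a slope of −1.47 in embryo 10, and without that embryo its mean slope was −0.10 (SE 0.13). The narrowest slopes were those of Jmjd4, from −0.12 to 0.24, and Jmjd6, from −0.25 to 0.063. Here too embryos 10 and 12 stood apart, at 0.24 and 0.23 for Jmjd4 and −0.21 and −0.25 for Jmjd6. In the other embryos Jmjd4 ran from −0.12 to −0.00041 and Jmjd6 from −0.011 to 0.063. The signs of both mean slopes therefore rest on embryos 10 and 12. Slopes of 16-cell and 32-cell embryos did not differ for any gene after adjustment (limma), and 1 gene had an unadjusted p below 0.05.

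**Figure D5:**
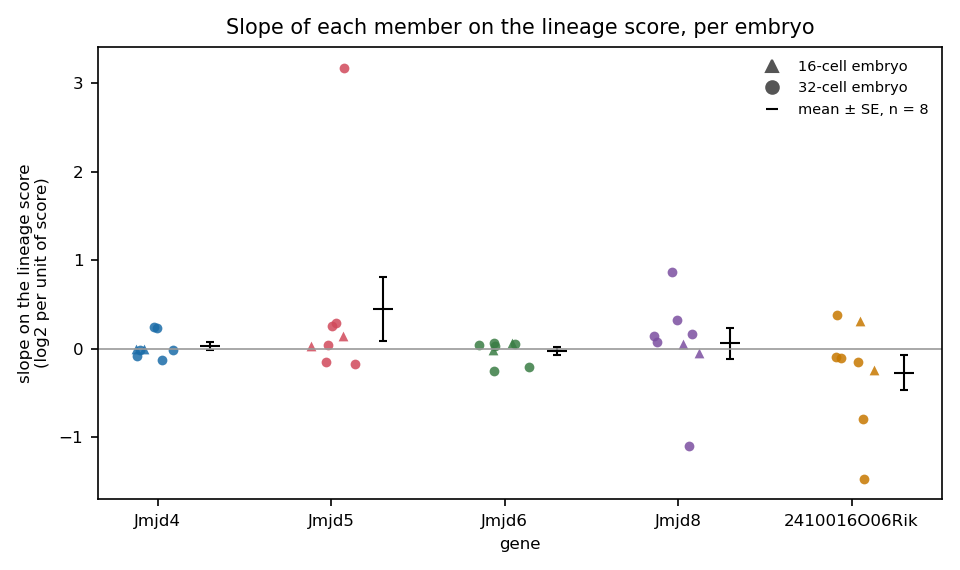
Slope of each member on the lineage score (y axis, log2 per unit of score) in each of the 8 embryos (triangles 16-cell, circles 32-cell), with the mean and SE in black. A positive slope means a higher level in cells that lean to the ICM. Slopes lie on both sides of 0 for each member, and those of Jmjd4 and Jmjd6 stay within −0.25 and 0.24. The positive slopes of Jmjd4 and the lowest of Jmjd6 are those of 32-cell embryos 10 and 12, which held only positive scores.

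Embryonic stem cell RNA, taken from cultured pluripotent cells, gave a reference outside the embryo. Over 10 samples of 25 to 800 pg, Jmjd4 read between −2.28 and −1.01, Jmjd6 between 0.17 and 1.32 and Jmjd8 between −5.21 and −3.83, all detected in 10 of 10. Jmjd5 and 2410016O06Rik were detected in 9 of 10. The sample without Jmjd5 held 32 pg, but the one without 2410016O06Rik held 800 pg. The 9 detected samples averaged −4.57 ± 0.819 (SD, n = 9) for Jmjd5 and −1.79 ± 0.816 (SD, n = 9) for 2410016O06Rik.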

How the data were processed

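RNA of oocytes, zygotes, whole embryos, blastomeres (singly or in groups) and ESCs was reverse transcribed, preamplified for 18 cycles and measured by qPCR on microfluidic chips. The authors deposited cycle thresholds (Ct, a score on which lower means more transcript) from the BioMark software, and a normalized log2 table, which the authors' deposited values show to be relative to Gapdh, Hspa8 and Lmnb1, although the methods name Hnrnpr, Ssu72 and Ube2e1. The latter were used here, and the assays of Gapdh, Hspa8 and Lmnb1 were marked as failed. Assays marked as failed (36), 3 low-quality samples, and, from the stage comparisons, whole 16- and 32-cell embryos, isolated ICM and TE groups and ESC RNA were left out.

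Stages were compared with limma 3.58.1 (lmFit and eBayes, R 4.3.3) on 58 oocyte or embryo means in 1 fit of all stages, and p-values were adjusted over all genes that passed (Benjamini-Hochberg). Lineage slopes were tested with limma over embryos. Nothing in the labels gives a chip or day for a sample, and qPCR gives no read depth. P-values measure the spread between units, and whether these came from separate collections is not stated. The members and gene lists were chosen with earlier results of these data known. Named genes are the members, the 3 genes most like each, and the 3 largest called differences in each direction among 17 other JmjC genes. Tests were tried on simulated data. Alternatives were other control genes and scalings, treatment of undetected values, units and sample sets. Promoter windows are from RefSeq (GRCm38.p6), and all 5 members matched, 2 by synonym. Other steps ran in Python 3.11.15 (scipy 1.17.1, numpy 2.4.6, pandas 2.3.3).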

Additional observations from a re-analysis of the deposited data

Results flagged for a closer look

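Each group of 4 to 10 units was searched for an embryo far from the others (Dixon's criterion), and 5 of 25 groups had one, where chance gives about 1 in 20. The lowest 8-cell embryo for Jmjd4 read −6.65, and 2 of its 8 blastomeres had no signal. The highest 32-cell embryo for Jmjd6 read 1.60. The lowest 4-cell embryo for 2410016O06Rik read −1.32. Among lineage slopes, that of Jmjd5 was highest at 3.18 in 32-cell embryo 12 and that of Jmjd8 lowest at −1.10 in embryo 10. Neither of these embryos held a sample with a negative lineage score. The causes were not tested.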

How the results depend on the processing

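Over the 14 called differences of members, 359 of 378 recomputed values kept their direction and their call, 16 kept the direction only and 3 reversed. All 3 were of Jmjd4: −0.35 from zygotes to 2-cell and −1.84 from MII oocytes to 16-/32-cell embryos with no normalization, and −1.10 for the latter with the deposited normalized table. The number of members called from zygotes to 2-cell was 5 in place of 3 without Ube2e1 among the controls, with the deposited normalized table and with whole embryos left out. From 2-cell to 4-cell it was 1, but 0 with the deposited normalized table and 2 with no normalization, with values below −10 set to −10, with undetected values missing, with every sample a replicate with or without the embryo as a random block, with single cells only and with whole embryos left out. With no normalization 1 member was called at each of the steps from 4-cell to 8-cell (3 before), 8-cell to 16-cell (2 before) and 16-cell to 32-cell (0 before), where the deposited normalized table gave 2 and adding whole 16- and 32-cell embryos 1. Leaving out 1 unit gave 1 to 2 members from 2-cell to 4-cell and 0 to 2 from 8-cell to 16-cell, 0 without the first 16-cell embryo and 1 without the second. For Jmjd8 from 2-cell to 4-cell, the fall was called without the sixth 2-cell unit (limma adjusted p = 0.0445) or the second 4-cell embryo (limma adjusted p = 0.00965).

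Uncalled values changed sign for Jmjd6 from zygotes to 2-cell without Hnrnpr (0.16) and from 16-cell to 32-cell without Ssu72 (0.10), and for Jmjd5 from 16-cell to 32-cell, which ran from −1.66 to 0.17 with 1 unit left out. Slopes on the lineage score changed sign for Jmjd6 without Ssu72 (0.0054), with no normalization (0.23), the deposited table (0.0010), undetected values missing (0.11) and weighted embryos (0.039), for Jmjd8 with undetected values missing (−0.55), removed samples added (−0.022) and a textbook score (−0.035), for Jmjd4 with removed samples added (−0.078), a textbook score (−0.048), weighted embryos (−0.039) and embryos of 3 samples (−0.060), and for 2410016O06Rik with a textbook score (0.0096). With 1 embryo left out they ran from −0.0020 to 0.050 for Jmjd4, −0.044 to 0.0016 for Jmjd6 and −0.056 to 0.22 for Jmjd8. No alternative called a member's slope.

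Samples share replicate numbers only as names: the deviations of 420 pairs with the same number correlated with a median of −0.0074, with 80 pairs above 0.1. With every sample a replicate and the replicate number as a block, 3 members were called from zygotes to 2-cell, 5 from MII oocytes to 16-/32-cell embryos and 3 from 2-cell to 4-cell. Leaving out the 25 samples with a control Ct above 18, an alternative chosen after seeing the data, changed no count of members beyond 1.5 times. The cause of each change was not tested.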
